A study of Mus musculus with 8 samples.

Results

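A set of 40 genes of mitosis and cytokinesis was followed in skin keratinocytes from an Hmgb1 knockout and in control keratinocytes. The genes were chosen by name, with earlier results of these data known (G2/M cyclins and kinases, spindle checkpoint, kinetochore, kinesin and cytokinesis genes). All 40 were found among the 24421 gene symbols counted and were among the 13016 genes tested. The 4 knockout libraries came from keratinocytes of InvEE mice with both HMGB1 alleles floxed and K5 Cre (InvEE K5 Cre+ HMGB1 fl/fl), and 4 control libraries from InvEE mice with the same floxed alleles and no Cre (InvEE K5 Cre- HMGB1 fl/fl), all of strain CBA x C57Bl/6J. InvEE mice express an activated form of the kinase MEK1 from the involucrin promoter, which is active in the differentiating layers of the epidermis, so both groups carry this transgene. K5-Cre recombines floxed sequence in basal keratinocytes and their descendants. Hmgb1 encodes an abundant chromatin protein that can also leave cells as a danger signal. Only knockouts carried Cre, so effects of Cre and of Hmgb1 loss cannot be told apart. The labels give neither age nor sex. They number the replicates without tying each to its own animal, and the p-values therefore describe variation from library to library, some of which may be technical.

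Mitosis begins when cyclin B with the kinase Cdk1 becomes active. Chromosomes then attach to the spindle through kinetochores, and the spindle checkpoint holds the anaphase-promoting complex back until all are attached. Cdc20 then activates that complex, sister chromatids part, and the spindle midzone and a contractile ring of actin and myosin divide the cell. In healthy epidermis the cells that divide sit mainly in the basal layer. Transcripts of these genes are made mostly in G2 and M phase, so their level in bulk RNA depends both on how many cells are dividing and on how much RNA each holds, and these cannot be told apart here.

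Library totals over genes were 30841304 to 32150134 counts in knockouts and 30506676 to 34229030 in controls. Hmgb1 was at 113 to 126 CPM (counts scaled to the size of each library) in knockouts and at 565.5 to 615.0 CPM in controls (log2 fold change -2.32, SE 0.09, edgeR adjusted p = 3.576e-07). The knockouts kept 0.20 of the control level, and the source of that remainder was not tested. Markers of basal keratinocytes, Krt5 and Krt14 among them, summed to 48290 to 57740 CPM in knockouts and 48120 to 55310 CPM in controls, and 0 of 7 passed the test. Suprabasal markers summed to 13930 to 18010 CPM in knockouts and 8240 to 13120 CPM in controls, with 2 of 7 tested higher (Krt10 and Sbsn). Hair follicle markers summed to 1808 to 2434 CPM in knockouts and 1520.0 to 1991 CPM in controls, with 1 of 7 tested lower (Lgr5). Most of that sum was Krt17 and Krt79, which had positive log2 fold changes (0.43 and 0.11). The other 5 tested were negative (Lgr5 -2.09, Cd34 -1.24, Lhx2 -1.03, Sox9 -0.29 and Msx2 -0.21), so the sum does not describe them. Immune markers summed to 17.0 to 41.8 CPM in knockouts and 19.0 to 52.6 CPM in controls, fibroblast markers to 3.41 to 24.0 CPM in knockouts and 5.98 to 12.03 CPM in controls, and endothelial markers to 0.442 to 2.04 CPM in knockouts and 0.831 to 4.19 CPM in controls. The endothelial gene Emcn had 0 counts in all libraries but control replicate 3, which had 1. Melanocyte markers summed to 12.6 to 14.2 CPM in knockouts and 16.2 to 18.7 CPM in controls. Of these lists 1 fibroblast gene (Dcn) was called higher and 1 melanocyte gene (Mitf) lower. Y-linked transcripts were present in knockout replicate 1 and control replicates 2 and 3 and near 0 in the other 5 libraries. Xist ran the opposite way, at 4.91 CPM in knockout replicate 1 and 0.22 and 0.37 CPM in control replicates 2 and 3. In the other 5 libraries Xist was at 1283 to 2323 CPM. The part of the suprabasal, melanocyte or other marker levels in the results was not tested.

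Of the 40 members, 4 were higher in the knockout: Ckap2l, Anln, Prc1 and Cdc20. They made up 10% of the 40, where 4.33% of all tested genes were called higher (edgeR quasi-likelihood test, Benjamini-Hochberg adjusted p under 0.05). No member was called lower, against 4.54% of all tested genes (8.87% were called in either direction), and limma-voom and DESeq2 also called 0 lower. An unadjusted p under 0.05 was reached by 9 of the 40 members, beside 26.2% of all tested genes. The median log2 fold change of the 40 was 0.12, beside -0.02 over all tested genes. The log2 fold change was positive for 37 members with TMM scaling, for 29 with upper-quartile scaling and for 23 with library totals only, so the sign of the smaller values depends on the scaling. Over all tested genes TMM scaling gave 563 higher and 591 lower, and library totals only gave 370 higher and 997 lower, with the median of all genes shifted by -0.107. The 4 called genes were positive under each scaling. In all, 5 members had knockout libraries all above the control libraries, the 4 called genes and Ect2 (12.5%, against 7.95% of all tested genes).

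**Figure D1:**
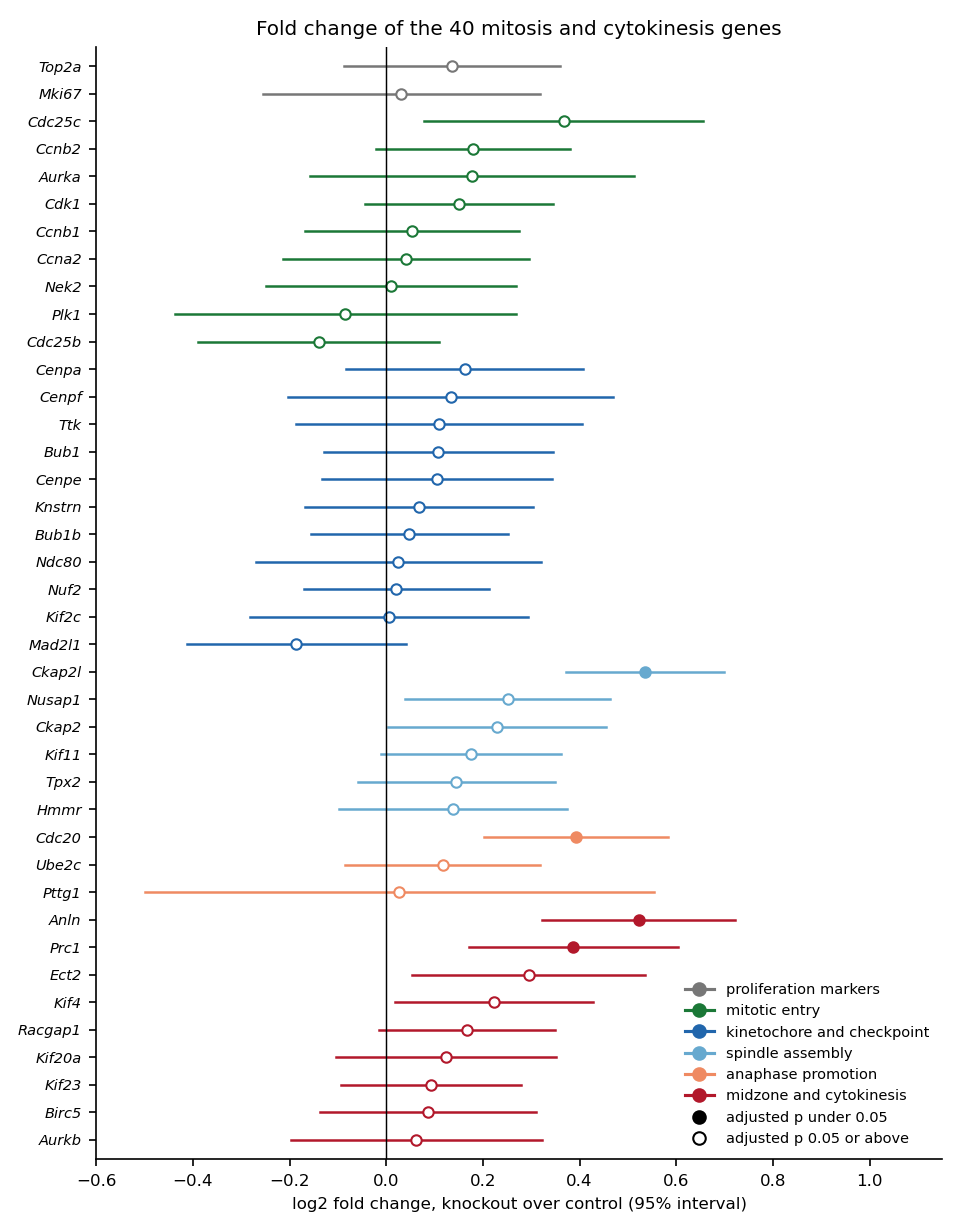
Log2 fold change of each of the 40 members, knockout over control, with its 95% interval, grouped by role and ordered within each role. Filled points (Ckap2l, Cdc20, Anln, Prc1) have an edgeR adjusted p under 0.05, and the point farthest to the left is Mad2l1 at -0.19.

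Promoter sequences of the 4 genes are shown because the transcripts of many mitotic genes are known to be governed through a short promoter element near the transcription start, the cell cycle homology region, to which the DREAM complex binds in resting cells. Each stretch of 300 bases runs 5′ to 3′ on the strand of the gene from 250 bases before the RefSeq start site to 50 bases after it (build GRCm38.p6, the assembly of mm10). Capitals mark TTTGAA, the core letters of that element, and CCAAT, each on either strand. The windows are chr2:129297163-129297462 on the minus strand for Ckap2l, chr9:22389157-22389456 on the minus strand for Anln, chr7:80294201-80294500 on the plus strand for Prc1, the first of its 2 windows, and chr4:118437294-118437593 on the minus strand for Cdc20.
Ckap2l: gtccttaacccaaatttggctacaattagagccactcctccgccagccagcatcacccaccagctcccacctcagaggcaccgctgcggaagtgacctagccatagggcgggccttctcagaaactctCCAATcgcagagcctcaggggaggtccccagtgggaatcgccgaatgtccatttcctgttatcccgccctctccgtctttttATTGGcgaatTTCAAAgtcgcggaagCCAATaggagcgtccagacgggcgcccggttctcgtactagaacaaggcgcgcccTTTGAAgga
Anln: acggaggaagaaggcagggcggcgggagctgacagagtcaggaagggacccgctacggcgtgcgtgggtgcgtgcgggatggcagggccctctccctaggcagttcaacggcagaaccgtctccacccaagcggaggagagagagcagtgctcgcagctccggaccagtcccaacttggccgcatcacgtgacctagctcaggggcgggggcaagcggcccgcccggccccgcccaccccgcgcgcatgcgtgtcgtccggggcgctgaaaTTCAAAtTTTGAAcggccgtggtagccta
Prc1: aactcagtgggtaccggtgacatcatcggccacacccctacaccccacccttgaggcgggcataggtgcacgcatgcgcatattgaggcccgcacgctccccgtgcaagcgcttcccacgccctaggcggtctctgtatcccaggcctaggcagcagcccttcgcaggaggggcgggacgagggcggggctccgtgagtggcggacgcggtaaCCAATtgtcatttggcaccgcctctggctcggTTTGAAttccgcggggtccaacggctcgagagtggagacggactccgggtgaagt
Cdc20: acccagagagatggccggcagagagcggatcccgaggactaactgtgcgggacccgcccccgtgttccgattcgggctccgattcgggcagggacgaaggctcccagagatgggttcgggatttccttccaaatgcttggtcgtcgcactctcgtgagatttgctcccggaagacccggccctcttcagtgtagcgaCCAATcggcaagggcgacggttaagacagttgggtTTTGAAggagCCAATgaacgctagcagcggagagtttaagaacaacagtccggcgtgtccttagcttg
All 4 held TTTGAA. With the start site as 0, its first base lay at -5 in Prc1 and at -18 in Cdc20, while Anln had 2 matches after the start, at 21 on the opposite strand and at 28, and Ckap2l had matches at -30 on the opposite strand and at 41. CCAAT was absent from the Anln window and present in the other 3.

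RefSeq promoters were given for 35 of the 40 members. TTTGAA on either strand was in the promoters of 24 of these (68.6%), beside 20.2% of 27025 genes with promoters of the same length. CCAAT was in 26 (74.3%), beside 41.1% of all, and both motifs were in 21 (60%), beside 7.97%. TATAAA, the letters of a TATA box, were in 1 member (2.86%), beside 15.7% of all. Among the anaphase and cytokinesis genes 8 of 10 promoters held TTTGAA, and among the early mitotic genes 14 of 23. The 24 members with TTTGAA had a median log2 fold change of 0.16 and included the 4 called genes, and the 11 without it had a median of 0.05 and no called gene. These are descriptions with no test, and a match of letters is not a binding site.

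**Figure D2:**
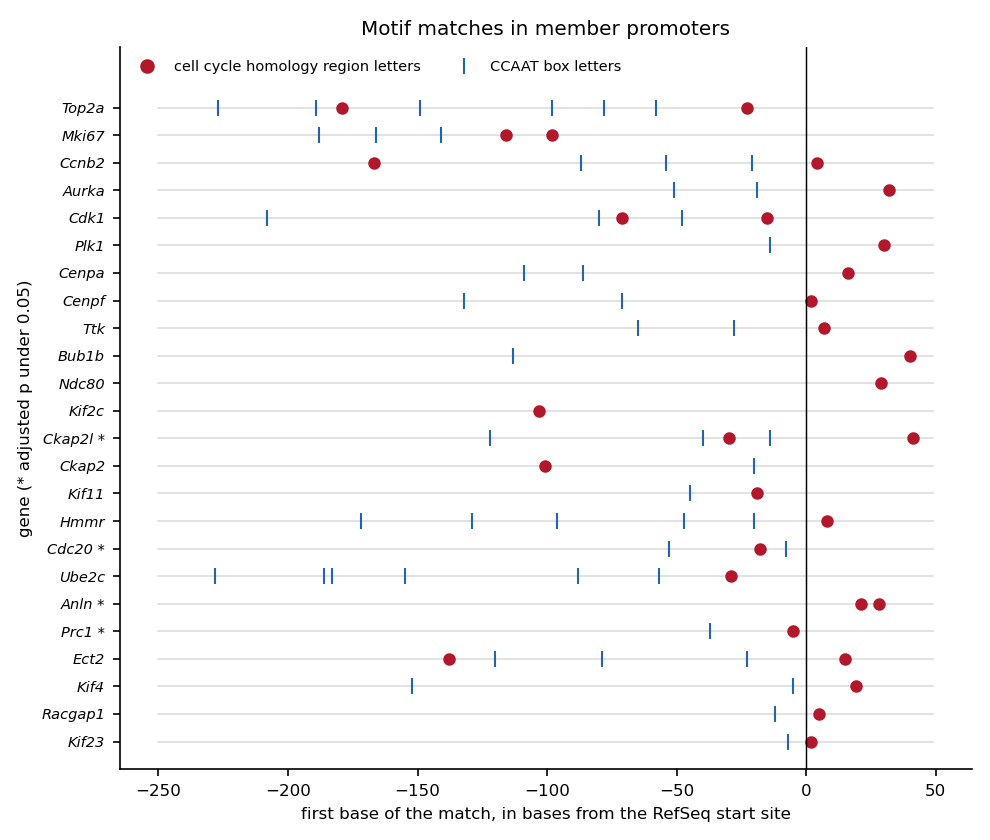
Position of the first base of each TTTGAA match (circles) and CCAAT match (bars) in the 24 member promoters that hold TTTGAA, in bases from the RefSeq start site, for the first window of each gene that holds the motif. Genes with an adjusted p under 0.05 carry an asterisk, and the circles of Cdc20 and Prc1 lie shortly before the start while those of Anln lie after it.

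Genes of mitotic entry, the cyclins and kinases that start M phase, did not pass the test in any of 9 cases. Cdc25c, a phosphatase that activates Cdk1, had the highest log2 fold change among them, 0.37 (SE 0.13, adjusted p = 0.1034). It was at 20.5, 23.1, 21.7 and 24.3 CPM in knockout replicates 1 to 4 and at 21.6, 17.3, 14.8 and 15.8 CPM in control replicates 1 to 4. Control replicate 1 lay within the knockout range, and without it Cdc25c was called (adjusted p = 0.03457), as it was with DESeq2 (adjusted p = 0.048). The related phosphatase Cdc25b had the lowest, at -0.14 (SE 0.11), with 96.8, 119.7, 120.2 and 115.5 CPM in knockouts and 103.3, 138.9, 135.9 and 120.2 CPM in controls. Plk1, the Polo kinase of mitotic entry and spindle assembly, was at 34.0, 46.2, 54.3 and 59.4 CPM in knockouts and at 44.0, 51.7, 58.3 and 51.7 CPM in controls, so that knockout replicate 1 lay below every control and knockout replicate 4 above them. Ccnb1, cyclin B1, averaged 107 ± 13.6 CPM in knockouts and 103 ± 4.59 CPM in controls (SD, n = 4 each), and its fold change had a 95% interval of 0.889 to 1.21. For Cdk1 that interval was 0.970 to 1.27 and for Ccna2, cyclin A2, it was 0.863 to 1.23. Ccnb2, Aurka and Nek2, a second B-type cyclin and a pair of centrosomal kinases, had log2 fold changes of 0.18, 0.18 and 0.01.

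None of the 11 kinetochore and spindle checkpoint genes passed. Their log2 fold changes ran from -0.19 to 0.16, with a median of 0.07. Mad2l1, the checkpoint protein that inhibits Cdc20, had the lowest of all 40 members, with 31.0, 36.5, 34.4 and 34.5 CPM in knockouts and 33.4, 40.5, 43.8 and 37.6 CPM in controls (adjusted p = 0.2822). The groups overlapped only through control replicate 1. Cenpa, the histone H3 variant that marks centromeres, had the highest, with 68.7, 90.0, 76.0 and 67.2 CPM in knockouts and 62.1, 65.7, 77.2 and 64.8 CPM in controls (adjusted p = 0.3885). For Bub1 and Bub1b, kinase and pseudokinase of the checkpoint, the fold change had 95% intervals of 0.914 to 1.27 and 0.898 to 1.19. Ttk, the checkpoint kinase that acts upstream of them, was at 0.11 on the log2 scale, and the attachment proteins Ndc80, Nuf2 and Knstrn were at 0.03, 0.02 and 0.07. Cenpe, a kinesin that moves chromosomes to the spindle equator, and the large kinetochore protein Cenpf were at 0.10 and 0.13. Kif2c, which shortens microtubules at faulty attachments, was at 0.01.

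In the spindle assembly class 1 of 6 genes passed. Ckap2l, a microtubule-associated protein of the mitotic spindle (chromosome 2, 129268210 to 129297228, mm10), was at 136.9, 150.3, 140.7 and 146.5 CPM in knockouts and at 99.2, 102.4, 95.4 and 99.4 CPM in controls. Every knockout library was above every control, with a gap far wider than the spread within either group (1.45-fold, log2 0.54, SE 0.07, adjusted p = 0.004033, exact permutation p = 0.0286, the smallest this design allows). Its relative Ckap2 was at 59.7, 75.8, 65.7 and 74.3 CPM in knockouts and at 65.2, 60.9, 52.95 and 56.0 CPM in controls, and did not pass (log2 0.23, SE 0.10, adjusted p = 0.1842). Within each library, the log2 ratio of Ckap2l to Ckap2, which no scaling can change, was 0.98 to 1.197 in knockouts and 0.61 to 0.85 in controls. These ranges did not overlap. That ratio is a description with no test. Hmmr, a spindle protein that also binds hyaluronan, had the lowest log2 fold change of the class, 0.14. It was at 54.3, 71.8, 60.9 and 75.7 CPM in knockouts and at 58.2, 60.4, 61.95 and 58.1 CPM in controls, with knockout libraries on both sides of the controls. Nusap1, which bundles spindle microtubules, averaged 88.9 ± 10.04 CPM in knockouts and 74.7 ± 4.37 CPM in controls (SD, n = 4 each, edgeR adjusted p = 0.1283), and was called without knockout replicate 1 (adjusted p = 0.04804). Kif11, the motor that pushes the spindle poles apart, and its partner Tpx2 were at 0.18 and 0.15.

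Anaphase promotion was represented by 3 genes, of which Cdc20 passed. This gene (chromosome 4, 118432901 to 118437343, mm10) was at 137.9, 160.1, 150.2 and 147.2 CPM in knockouts and at 104.6, 123.9, 115.5 and 109.6 CPM in controls. All knockouts lay above all controls (1.31-fold, log2 0.39, SE 0.09, adjusted p = 0.02125). Leaving out control replicate 4 ended the call (adjusted p = 0.05278), and so did leaving out knockout replicate 2 (adjusted p = 0.07278). Ube2c, the ubiquitin-conjugating enzyme that works with the anaphase-promoting complex, averaged 96.9 ± 8.43 CPM in knockouts and 89.4 ± 6.62 CPM in controls (SD, n = 4 each, adjusted p = 0.4533). Pttg1, the securin that keeps separase inactive until anaphase, had the widest interval of all members, 0.708 to 1.47 in fold. It was at 16.5, 30.0, 24.4 and 30.1 CPM in knockouts and at 26.0, 29.4, 15.4 and 28.5 CPM in controls, with knockout replicate 1 and control replicate 3 below the other 6 libraries.

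The midzone and cytokinesis class had 2 of its 9 genes called, Anln and Prc1. Anln encodes anillin, the scaffold that ties actin, myosin and septins together in the contractile ring (chromosome 9, 22331214 to 22389211, mm10). It was at 449.9, 476.3, 395.6 and 448.9 CPM in knockouts and at 310.9, 326.5, 292.0 and 303.3 CPM in controls. No library of one group reached the range of the other (1.44-fold, log2 0.52, SE 0.09, adjusted p = 0.008137, exact permutation p = 0.0286). Prc1, which crosslinks antiparallel microtubules in the midzone (chromosome 7, 80294445 to 80316259, mm10), was at 214.8, 235.5, 199.6 and 229.3 CPM in knockouts and at 171.7, 187.7, 147.0 and 165.8 CPM in controls. The knockouts were all above the controls (1.31-fold, log2 0.39, SE 0.10, adjusted p = 0.03589). This call was lost in 6 of 8 fits that left out 1 library, namely knockout replicates 1, 2 and 4 and control replicates 1, 3 and 4, with adjusted p-values up to 0.1094, the highest without knockout replicate 2.

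Ect2, the exchange factor that activates RhoA at the cell equator, was at 119.2, 136.1, 113.5 and 117.8 CPM in knockouts and at 109.3, 93.6, 82.8 and 110.8 CPM in controls. Its groups did not overlap, but it did not pass the test (log2 0.30, SE 0.11, adjusted p = 0.1151). Kif4, a chromosome-bound kinesin that works with Prc1 in the midzone, averaged 73.0 ± 7.32 CPM in knockouts and 62.6 ± 3.86 CPM in controls (SD, n = 4 each, adjusted p = 0.1555). Racgap1 and Kif23, which together form the centralspindlin complex, were at 0.17 and 0.09 on the log2 scale, and Kif20a, which carries the chromosomal passenger complex to the midzone, was at 0.12. Aurkb, the kinase of that complex, had the lowest value of the class, 0.06, with 39.3, 48.4, 51.4 and 55.8 CPM in knockouts and 40.8, 49.7, 51.4 and 44.9 CPM in controls. Its partner Birc5, survivin, was at 0.09.

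The general proliferation markers did not pass. Mki67, which encodes the Ki-67 antigen, was at 709.6, 952.6, 625.9 and 856.4 CPM in knockouts and at 769.4, 749.4, 800.4 and 757.6 CPM in controls. Knockouts lay on both sides of a narrow control range (log2 0.03, 95% interval -0.26 to 0.32, adjusted p = 0.9026). Top2a, the topoisomerase that untangles sister chromatids, was at 583.7, 670.9, 529.0 and 593.7 CPM in knockouts and at 493.7, 547.0, 539.4 and 583.1 CPM in controls (log2 0.14, adjusted p = 0.4286).

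**Figure D3:**
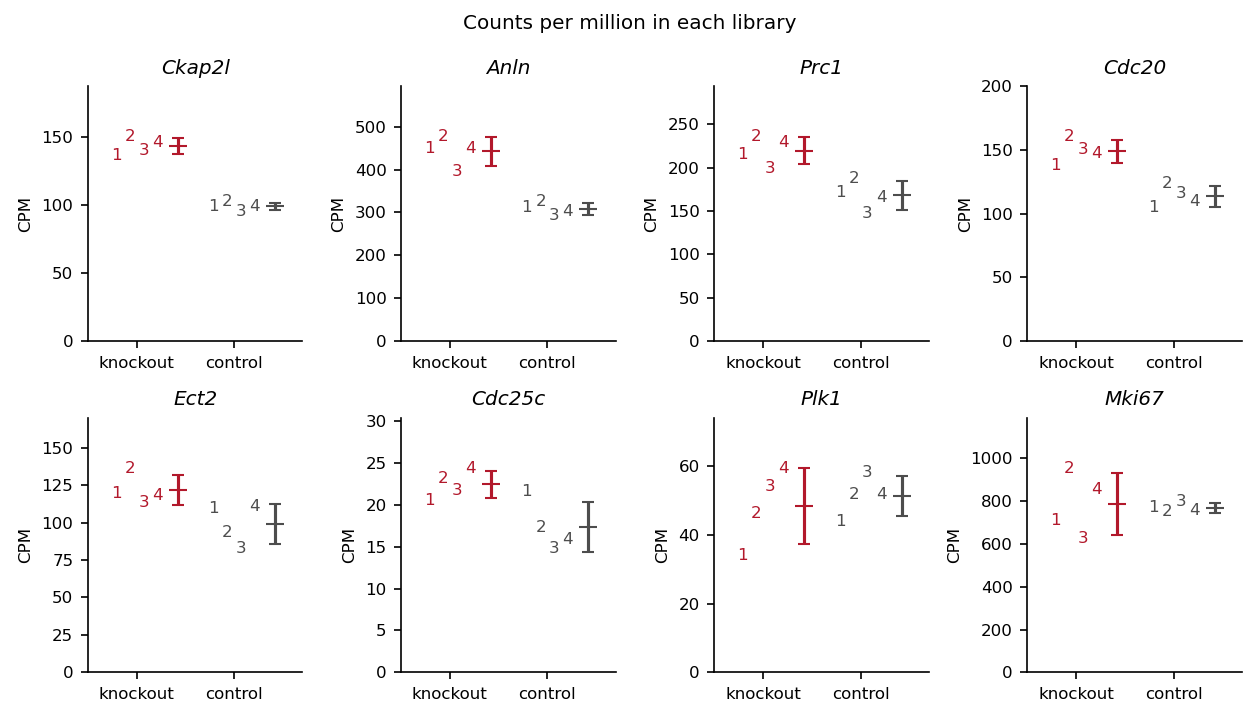
CPM of 8 members in each library, with the replicate number as the symbol and the mean and SD of each group (n = 4) beside it. Knockout and control libraries are apart for Ckap2l, Anln, Prc1, Cdc20 and Ect2 and overlap for Cdc25c, Plk1 and Mki67.

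Per kilobase of exon, Top2a was the most abundant member, at 113.8 CPM per kb in knockouts and 103.6 in controls (exon lengths from GENCODE vM21, which need not be the annotation used for counting). Anln followed in knockouts at 96.1 CPM per kb, ahead of Cdc20 at 83.1, Mki67 at 78.1 and Prc1 at 71.6. In controls Mki67 was second at 76.5 CPM per kb, ahead of Anln at 66.9, Cdc20 at 63.3 and Prc1 at 54.8. Mad2l1 was lowest in both groups, at 4.25 CPM per kb in knockouts and 4.83 in controls. That rank depends on the exon length used, 8032 bases, which exceeds its RefSeq span (chromosome 6, 66535221 to 66541107). Without division by length, Cdc25c (22.4 CPM in knockouts and 17.4 in controls) and Ndc80 (20.5 and 20.2) were below Mad2l1 (34.1 and 38.8).

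Early mitotic genes (entry, kinetochore and checkpoint, spindle assembly) were then set beside those of anaphase and cytokinesis. These classes, too, were chosen with earlier results of these data known. Of 26 early genes 1 was higher (3.85%), and of 12 anaphase and cytokinesis genes 3 were (25%), where 4.33% of all tested genes were. The 3 of 12 became 1 of 12 when knockout replicate 2 or control replicate 4 was left out. It was also 1 of 12 with library totals only and in the 5 libraries that lack Y-linked transcripts. In that order, these fits called 1.52%, 2.91%, 2.84% and 1.06% of all tested genes higher. The median log2 fold changes were 0.11 and 0.15. The log2 difference between the mean of the anaphase and cytokinesis genes and the mean of the early genes, each taken relative to the control mean, was 0.17, 0.13, 0.08 and 0.04 in knockout replicates 1 to 4 and -0.01, 0.05, -0.13 and 0.09 in control replicates 1 to 4. These values overlapped between the groups. With Aurkb and Birc5, which act both before and after anaphase onset, counted as early, the medians were 0.11 and 0.20. Both genes lay below the late median (log2 0.06 and 0.09), so moving them could not lower it. Other assignments, such as Cdc20 counted as early, were not tried.

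The mean levels by library show how far knockouts differed among themselves. The mean log2 level of the early genes, relative to the control mean, was -0.10, 0.19, 0.10 and 0.22 in knockout replicates 1 to 4 and -0.03, 0.04, 0.05 and -0.06 in control replicates 1 to 4. Knockout replicate 1 was below every control and the others above them. For the anaphase and cytokinesis genes the mean was 0.07, 0.32, 0.18 and 0.27 in knockouts and -0.04, 0.09, -0.07 and 0.02 in controls, so that knockout replicate 1 fell within the control range. The SD among knockouts was 0.147 for the early and 0.111 for the late genes, and among controls 0.057 and 0.074. Taken by role, the midzone and cytokinesis mean (0.12 to 0.32 in knockouts and -0.04 to 0.07 in controls) and the spindle assembly mean (0.09 to 0.37 in knockouts and -0.07 to 0.07 in controls) did not overlap between groups, and the other 4 did. Both means include called genes. In knockout replicate 1 Ckap2l was at 0.466, and other spindle assembly genes ran from -0.135 (Hmmr) to 0.136 (Kif11). Anln and Prc1 were at 0.547 and 0.359 there, and other midzone genes ran from -0.24 (Aurkb) to 0.293 (Kif4). Means without the called genes were not compared, so the separation is not shown for the rest of either class.

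**Figure D4:**
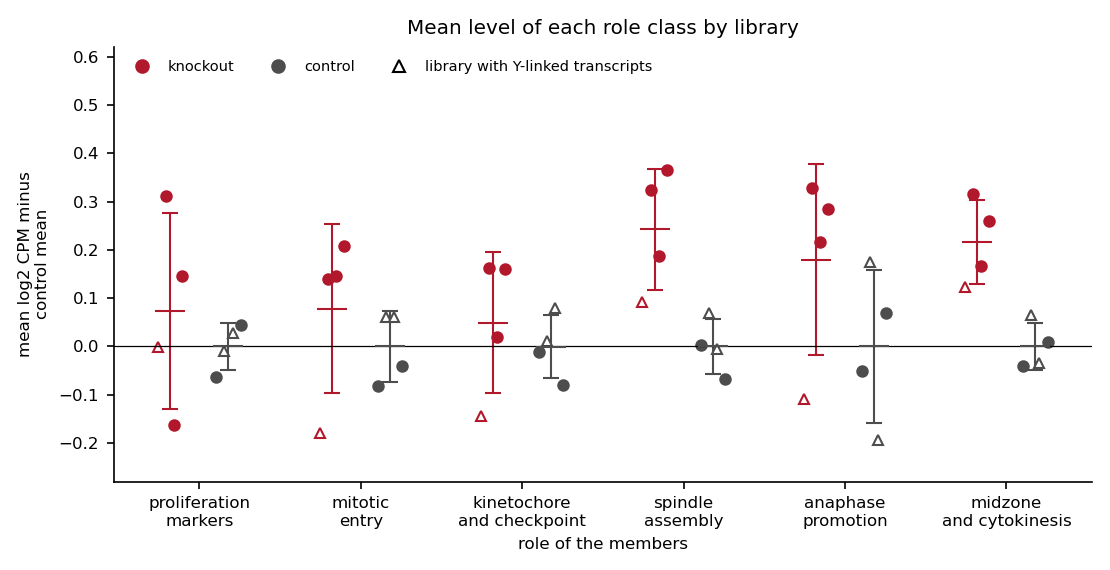
Mean log2 CPM of the members of each role, minus the control mean, in each library, with the group mean and SD (n = 4). Triangles mark libraries with Y-linked transcripts. The knockout triangle, replicate 1, lies lowest of the knockouts in every role but the proliferation markers.

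Knockout replicate 1 had the lowest level among knockouts for 29 of the 40 members, and lay below every control for 15 of the 40, including 12 early genes. Over all tested genes, 33.1% were below every control in that library, and the share lowest among knockouts there was not counted. Knockout replicates 2 and 4 were above every control for 27 and 30 members and below every control for none, where over all tested genes 26.6% and 24.3% lay above every control in these libraries and 31.0% and 24.7% below. Knockout replicate 1 was also the only knockout library with Y-linked transcripts. The mean log2 level of the members was 0.227 higher in knockouts than in controls among the 5 libraries without such transcripts, and the difference was -0.082 among the 3 with them. With a term for Y-linked transcripts, Ckap2l, Anln and Cdc20 were called and Prc1 was not (log2 0.38, beside 0.39 without the term, adjusted p = 0.0522). In the 5 libraries without them Ckap2l and Cdc20 were called, while Anln (log2 0.52, adjusted p = 0.06991) and Prc1 (log2 0.39, adjusted p = 0.1403) were not, with fold changes close to those over all 8 libraries. Ckap2l, Anln, Prc1 and Cdc20 were above every control in knockout replicate 1 too. The coefficient of variation of the members had a median of 9.999% among knockouts and 8.11% among controls, beside 10.1% and 9.52% for 6918 tested genes in the same range of mean CPM.

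**Figure D5:**
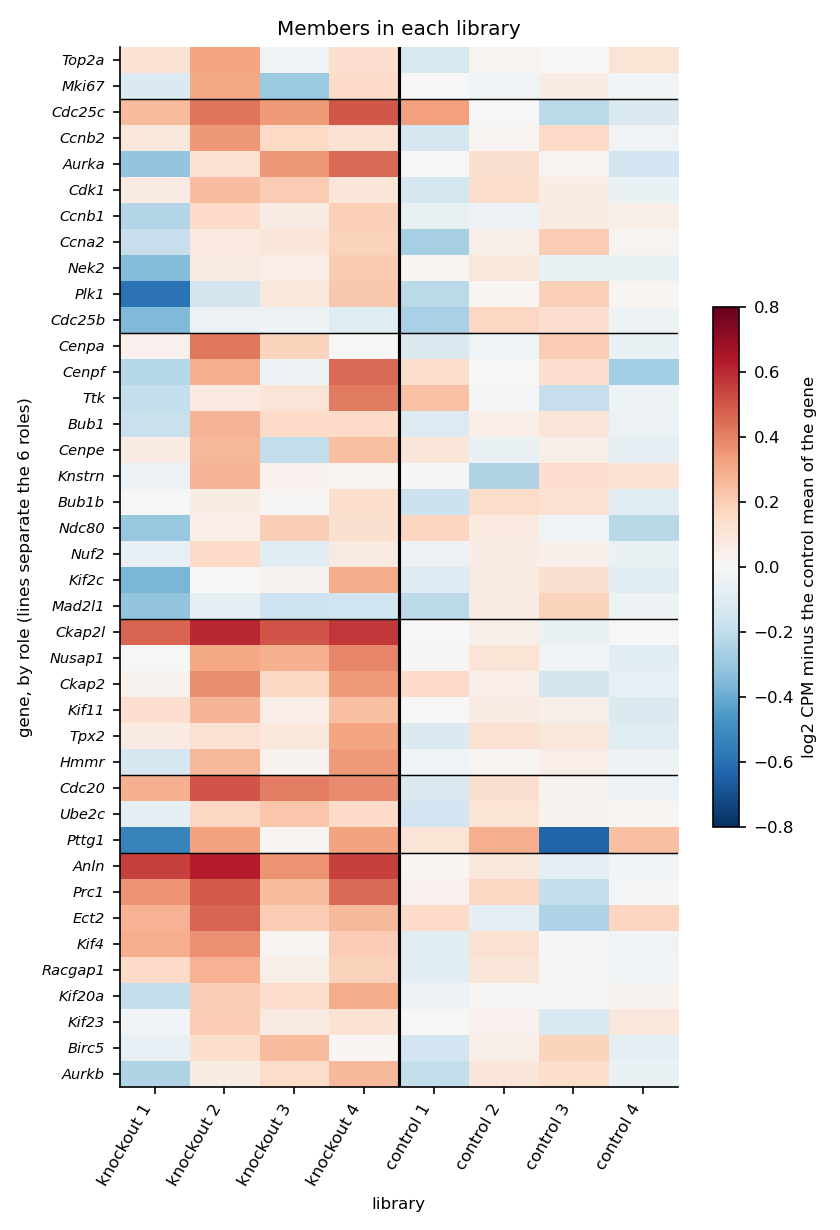
Log2 CPM of the 40 members (rows, by role) in the 8 libraries (columns), minus the control mean of the gene. Knockout replicate 1 is the bluest of the knockout columns among entry and kinetochore genes, while Ckap2l, Cdc20, Anln and Prc1 are red in all 4 knockout columns.

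Further genes of the same machinery were taken from 6 lists, with 150 of 151 listed genes found and tested. Of these 2 were higher and 0 lower, 1.33% higher where 4.33% of all tested genes were. An unadjusted p under 0.05 was reached by 31 of the 150, beside 26.2% of all tested genes. Pcnt, pericentrin, a scaffold of the centrosome, was at 129.3, 155.8, 118.4 and 154.8 CPM in knockouts and at 90.2, 77.3, 82.6 and 81.7 CPM in controls, with no overlap (log2 0.75, SE 0.11, adjusted p = 0.004535). Myh9, a heavy chain of non-muscle myosin II that drives ring constriction and also cell contraction outside mitosis, was at 1705, 1447, 1088 and 1320.0 CPM in knockouts and at 889, 912, 975 and 933.5 CPM in controls (log2 0.58, SE 0.13, adjusted p = 0.02407). The Myh9 call was lost without knockout replicate 2 or control replicate 1, 2 or 4, among the 5 libraries that lack Y-linked transcripts (adjusted p = 0.1301) and with the replicate number as a block (adjusted p = 0.06446).

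The other lists had 0 calls by edgeR. Their unadjusted counts below stand beside 26.2% of all tested genes with an unadjusted p under 0.05. Among 22 regulators of Cdk1 and of mitotic transcription, 5 had an unadjusted p under 0.05, and the Cdk1-inhibiting kinase Wee1 averaged 168 ± 13.6 CPM in knockouts and 157 ± 22.1 CPM in controls, with the phosphatase regulator Arpp19 at 128 ± 7.21 CPM in knockouts and 142 ± 6.24 CPM in controls (SD, n = 4 each). Among 18 genes of the anaphase-promoting complex and separase, 2 had an unadjusted p under 0.05. Its subunit Anapc5 was at 232 ± 14.8 CPM in knockouts and 232 ± 5.91 CPM in controls, and its enzyme Ube2s at 230.2 ± 18.9 CPM in knockouts and 212 ± 15.0 CPM in controls. Of 39 further kinetochore and checkpoint genes 6 had an unadjusted p under 0.05. The checkpoint protein Bub3 was at 76.2 ± 5.73 CPM in knockouts and 78.7 ± 9.18 CPM in controls, and the kinetochore protein Zwint at 59.5 ± 8.05 CPM in knockouts and 57.6 ± 3.73 CPM in controls. Among 17 condensin and cohesin genes 4 had an unadjusted p under 0.05, and Rad21, a cohesin subunit, was at 305 ± 37.4 CPM in knockouts and 295 ± 12.4 CPM in controls, with the condensin subunit Smc4 at 271 ± 20.4 CPM in knockouts and 233 ± 11.1 CPM in controls.

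Since the use of strand in counting was not given, reads of antisense neighbours may be included, mainly where the neighbour was not itself counted. Ambiguous reads were set apart in the deposited counts. Exons of Prc1 overlap those of Rccd1 on the other strand over 911 bases, and Rccd1 was at 4.49 to 10.2 CPM in knockouts and 3.76 to 8.80 CPM in controls, far below Prc1. Exons of Cdc20 overlap those of Elovl1, a fatty acid elongase gene, over 53 bases, and Elovl1 was at 117.7 to 178.0 CPM in knockouts and 86.1 to 127.4 CPM in controls (adjusted p = 0.07638). Ckap2l overlaps the locus Gm14024 over 181 bases, and Gm14024 was not among the genes counted, unlike Rccd1 and Elovl1. Anln had no exon overlap in GENCODE vM21.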

How the data were processed

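RNA of skin keratinocytes was measured in 4 knockout and 4 control libraries. The authors deposited raw counts, 1 whole number for each gene symbol. The submitters' processing notes name TopHat2 2.1.0, Trimmomatic 0.35, FastQC 0.11.4, SAMtools 0.1.18 and the build mm10. How genes were counted (tool, annotation, strand) is not given in the sources used here. Lines for reads outside genes (15.7 to 21.75% of reads) and ambiguous reads (0.918 to 1.11%) were left out. No pair of libraries held identical counts.

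Genes were filtered with filterByExpr and scaled by TMM, and genotype was the only term of edgeR's robust quasi-likelihood test (R 4.3.3, edgeR 4.0.16, limma 3.58.1, DESeq2 1.42.0), adjusted by Benjamini-Hochberg over 13016 genes with a threshold of 0.05. CPM use TMM-scaled sizes, and log2 CPM a prior count of 2. The exact permutation test was two-sided over 70 regroupings. Intervals are 95% intervals of the fitted log2 fold change. The steps were tested on simulated counts of 13016 genes, where the edgeR test recovered 30% of 1.5-fold and 70% of 2-fold changes. Recovery was not measured for the members alone. Their median level was higher (75.42 CPM, beside 23.87 CPM over all tested genes), and Cdc20 and Prc1 passed at 1.31-fold. The largest fold change of a member was 1.45 (Ckap2l). Among members that did not pass, only Cdc25c had a 95% interval reaching 1.5-fold (1.056 to 1.576). A member that did not pass may still differ, in most cases by less than 1.5-fold. Members, role classes and lists were chosen with earlier results of these data known. Values in every library were given for called members, for the highest and lowest log2 fold change of each role, and for Mki67 and Top2a, and of other lists for up to 4 called genes or the 2 most abundant. Plk1, Ckap2 and Ect2 were added after their values were seen, as were the check of antisense neighbours and the test of an interaction with Y-linked transcripts. Alternatives were DESeq2, limma-voom, other scalings, filters and dispersion, a replicate block, Y-linked transcripts and each library left out. Gene positions are those of RefSeq on GRCm38.p6, where 40 of 40 members had an entry.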

Additional observations from a re-analysis of the deposited data

Results flagged for a closer look

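With genotype, the means of all members and of early mitotic genes ran opposite ways in libraries with and without Y-linked transcripts. In the 5 libraries without them (3 knockout, 2 control), the mean log2 level of all 40 members was 0.227 higher in knockouts than in controls, and that of the early mitotic genes 0.22 higher, with every knockout above every control. In the 3 libraries with them (1 knockout, 2 control) these differences were -0.082 and -0.15, with the knockout below both controls. For the anaphase and cytokinesis genes the differences were 0.264 and 0.056, both positive. These values rest on 1 knockout library with Y-linked transcripts, replicate 1. The difference between the mean values was not tested. Gene by gene, an interaction term in edgeR called 0 of 40 members and 0 of 13016 genes (smallest adjusted p among members 0.6664), and 12 of 40 members had an unadjusted interaction p under 0.05, beside 7.27% of all tested genes. For Ckap2l, Anln and Prc1 the interaction was -0.09, 0.02 and -0.03 on the log2 scale, and for Cdc20 -0.31 (SE 0.17, adjusted p = 0.6859). The test was added after the data were seen.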

How the results depend on the processing

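Ckap2l kept its call in all 19 alternatives and Anln in 18, the exception (adjusted p = 0.06991) being the fit on only the 5 libraries lacking Y-linked transcripts. Cdc20 lost its call with library totals only (adjusted p = 0.06609), and Prc1 with library totals only (0.07729), a term for Y-linked transcripts (0.0522) and the 5 libraries (0.1403). The count of members called higher, 4, was 2 with library totals only and 2 in the 5 libraries, where 2.84% and 1.06% of all tested genes were called higher, and 2 to 4 leaving out 1 library. It was 2 without control replicate 4 and 2 without knockout replicate 2, where 2.91% and 1.52% of all tested genes were called higher. The count lower was 0 in all alternatives. Among anaphase and cytokinesis genes 1 was called higher with library totals only, 1 in the 5 libraries and 1 to 3 leaving out 1 library. DESeq2 called 5 of the 40 members higher, 2 of them early genes, where 8.4% of all tested genes were called higher. Leaving out 1 library, 1 to 2 early genes were called higher, where 1.52 to 5.15% of all tested genes were. The median log2 fold change of the members was 0.018 with library totals only, 0.242 in the 5 libraries and 0.078 to 0.184 leaving out 1 library. For early genes it was 0.242 in the 5 libraries and 0.059 to 0.182 leaving out 1 library, and for anaphase and cytokinesis genes 0.04 with library totals only, 0.25 in the 5 libraries and 0.117 to 0.198 leaving out 1 library. Library totals only moved the median of all genes by -0.107, which shifts every member down by construction. Same-numbered knockout and control libraries did not deviate together (correlations -0.229 to -0.052), so the numbers were not taken to pair them. This check and the replicate block use the number in the sample titles, and the deposited file of knockout replicate 4 carries a different number. With the replicate block the count of members called higher was 4, and Myh9 was the one named gene to lose its call.

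Of 1026 alternative values for 54 named genes, 72 changed sign, none of them called in either fit. Log2 fold changes that changed sign with library totals only were Mki67 -0.077, Ccna2 -0.062, Ccnb1 -0.05, Nek2 -0.091, Bub1b -0.058, Cenpe -0.005, Nuf2 -0.086, Ndc80 -0.077, Knstrn -0.041, Kif2c -0.095, Pttg1 -0.069, Aurkb -0.039, Birc5 -0.019, Kif23 -0.013, Wee1 -0.003, Anapc5 -0.109, Zwint -0.067, Numa1 -0.026 and Rad21 -0.061. With upper-quartile scaling they were Mki67 -0.024, Ccna2 -0.009, Nek2 -0.039, Bub1b -0.004, Nuf2 -0.033, Ndc80 -0.025, Kif2c -0.043, Pttg1 -0.022, Anapc5 -0.053, Zwint -0.01 and Rad21 -0.006. In the 5 libraries they were Cdc25b 0.084, Plk1 0.156, Anapc5 -0.027, Bub3 0.113 and Zwint -0.044, with a term for Y-linked transcripts Nek2 -0.042, Ndc80 -0.024, Kif2c -0.022 and Pttg1 -0.118, with the replicate block Nek2 -0.002, Kif2c -0.01 and Anapc5 0, with limma-voom Kif2c -0.004 and with a filter of 1 CPM Kif2c 0 and Anapc5 -0.005. Ranges over the 8 fits that left out 1 library, for genes that changed sign there, were Mki67 -0.072 to 0.128, Ccna2 -0.04 to 0.118, Plk1 -0.189 to 0.057, Nek2 -0.052 to 0.118, Bub1b -0.007 to 0.098, Nuf2 -0.024 to 0.057, Ndc80 -0.043 to 0.128, Knstrn -0.007 to 0.112, Kif2c -0.094 to 0.117, Pttg1 -0.145 to 0.19, Anapc5 -0.038 to 0.028, Bub3 -0.105 to 0.007, Zwint -0.043 to 0.104 and Rad21 -0.005 to 0.124. The cause was not tested apart from the scaling shift.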
